A study of Oncorhynchus mykiss with 6 samples.

Results

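The sequences described here are the 412 predicted small RNAs of 20 to 24 nt in a table of 1427 small RNA sequences from the liver of rainbow trout (Oncorhynchus mykiss). They were taken by 2 properties that use no measured level, a name that starts with PC- and a length of 20 to 24 nt. The other 977 sequences of the table, called known here, carry the name of a microRNA, and 657 of them have the same length range. A further 38 predicted sequences, 23 of them of 15 to 19 nt and 15 of 25 to 32 nt, lie outside that range. The sources used here do not give what the letters PC and the numbers in these names stand for. A name with 5p or 3p is taken as the label of the hairpin arm. This label was not checked against hairpins. PC-5p-48006_7 and PC-3p-88118_3 differ at their last base alone and carry opposite labels.

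The table comes from an experiment on juvenile wild-type trout of the strain labelled Walbaum. Liver libraries of 3 control samples (replicates 3, 4 and 6) were set against 3 from trout fasted for 4 days (replicates 3, 4 and 5). The labels give no feeding schedule for the controls, no sex and no statement that each library is a separate fish. All p-values therefore rest on differences among libraries that may be technical. Small RNA from frozen liver was sequenced on an Illumina GAIIx, and the table holds, for each sequence, an estimated read count per library.

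MicroRNAs are cut from hairpin transcripts by Drosha and Dicer, which leaves a duplex of a 5p and a 3p strand with short 3′ overhangs. One strand is usually kept in an Argonaute protein and guides it to messenger RNAs, mainly through its seed, bases 2 to 8 from the 5′ end. The ends of a microRNA vary from read to read, so a locus gives several forms, called end variants or isomiRs, and a shift of the 5′ end changes the seed while a shift of the 3′ end does not. Argonaute2 of mammals prefers a 5′ uridine or adenosine, written T or A below because the table is in DNA letters.

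The 5 most abundant predicted sequences are shown first, since they held 31.1% of all counts of the 412. Capitals mark the seed.
PC-5p-10117_60: gTGTGGTCggatcccctcgtggga
PC-3p-3042_289: tCATTCCAttccattgattccg
PC-5p-2160_445: tAGCAGCAcatcattactggta
PC-3p-1586_656: aAGTCGGCacaaacatatctgt
PC-5p-2335_401: gAGTAAATggaaaggtctga
Of these, PC-5p-2160_445 was the one whose seed was found among the known sequences of the table. The other 4 had no known sequence with the same bases 2 to 8, and none within 2 mismatches over 17 nt or more.

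Predicted sequences that match a known microRNA apart from their ends are shown next, each above the known sequence of the table that it overlaps without a mismatch. Capitals again mark the seed, so that a shifted 5′ end is seen as shifted capitals.
PC-3p-3978_206: cAATGTTCctgcagtgcaagat
ssa-miR-33b-3p: cAATGTTCctgcagtgcaaga
PC-3p-1971_492: cAATGTGTctgcagtgcagtat
ssa-miR-33a-3p: cAATGTGTctgcagtgcagta
PC-3p-5887_124: gCTGTGTGaggtcggacctatct
dre-miR-2188-3p_L+1_2ss13TC14AG: gCTGTGTGaggtcggacctatc
PC-5p-2160_445: tAGCAGCAcatcattactggta
ccr-mir-457a-p5_2ss14AT17TC: tAGCAGCAcatcattactgg
PC-3p-12482_46: tTTCAGTAgggtgtttgctgct
ssa-miR-30b-3p_L-1: tTTCAGTAgggtgtttgctgc
PC-5p-29073_14: tAGCAGCAcgtcatgatttgtaaa
ssa-miR-15a-5p_L-2R+1_1ss18GA: tAGCAGCAcgtcatgatttgta
PC-3p-12643_45: aGACCATGaagagctgctgcta
ssa-miR-15a-3p: cAGACCATgaagagctgctgct
PC-3p-5694_130: tTTTAGCAatggtaagggttct
dre-mir-451-p3_1ss6TC: tTTAGCAAtggtaagggttct
The first 6 predicted sequences started at the same base as the known one and ran further at the 3′ end, which leaves the seed as it is. PC-3p-12643_45 started 1 base later than ssa-miR-15a-3p, PC-3p-5694_130 started 1 base earlier than dre-mir-451-p3_1ss6TC, and neither had the seed of any known sequence of the table.

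The predicted sequences were rare. Together they held 13648 counts over 6 libraries, with a median total of 6 counts per sequence and a range from 0.6 to 1067. A total under 10 counts was found for 269 of the 412, and a total of 100 or more for 23. The 10 most abundant held 47.9% and the 20 most abundant 64.1% of their counts. A count above 0 was found in all 6 libraries for 72 sequences, in 5 for 55, in 4 for 67, in 3 for 100, in 2 for 88 and in 1 for 30. The 2 deepest libraries, control replicates 3 and 6, listed 351 and 310 of the 412, while the other 4 libraries listed between 185 and 236. A sequence not listed in a library may still have been present up to 3 counts, which is 0.714 to 4.07 CPM (counts per 1e+06 table counts) depending on the library, for counting error alone.

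Their lengths centred on 22 nt, the usual length of a microRNA. This length was found in 221 of the 412 (53.6%), against 39.6% of the 657 known sequences of 20 to 24 nt. Lengths of 21 and 23 nt followed with 76 and 72 sequences, and 24 sequences had 20 nt and 19 had 24 nt. The 5p and 3p labels were nearly balanced, with 203 and 209 sequences and 6552 and 7095 counts. The median GC content was 42.3%, and 45.0% among the known sequences of the same length range.

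Thymine was the most common first base. It opened 197 of the 412 sequences (47.8%), adenine 117 (28.4%), cytosine 62 (15.0%) and guanine 36 (8.74%). The known sequences of 20 to 24 nt had 42.6% thymine, 24.96% adenine, 22.5% cytosine and 9.74% guanine. The share of thymine was the same to 3 digits in both arms, 47.8% of the 5p and 47.8% of the 3p sequences, while adenine opened 32.5% of the 5p and 24.4% of the 3p sequences. Weighted by counts, the order differed from that of the known sequences. Guanine opened 22.8% of the counts of the predicted sequences and 0.575% of the counts of the known ones, and thymine 39.7% against 65.2%. PC-5p-10117_60 and PC-5p-2335_401, both among the 5 most abundant, begin with guanine. Among the known sequences, dre-miR-122_R-1 alone had 4708405 of the 8255822 counts opened by thymine.

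**Figure D1:**
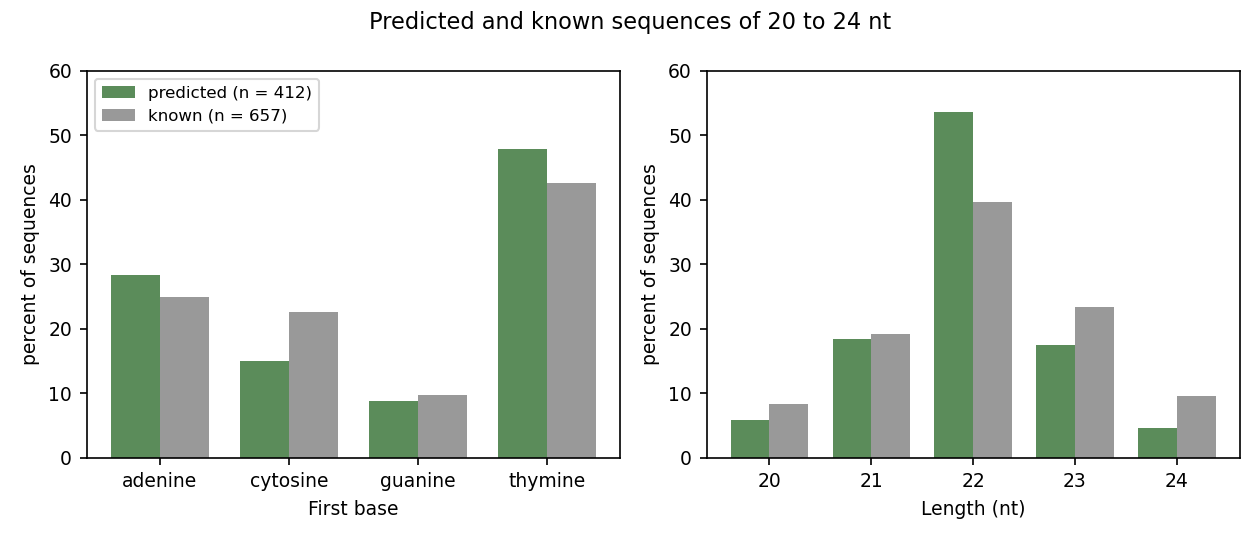
Percent of sequences (y axis) by first base (left) and by length in nt (right) for 412 predicted and 657 known sequences of 20 to 24 nt; each bar is a share of sequences, not of counts. Thymine leads in both groups (47.8% and 42.6%), and 22 nt is more frequent among the predicted (53.6%) than among the known sequences (39.6%).

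A known seed, meaning bases 2 to 8 of any known sequence of the table, was carried by 52 of the 412 sequences (12.6%). Of these 34 were labelled 3p and 18 labelled 5p, and they held 20.97% of the counts. The shares among the other predicted sequences were 4.35% of 23 for 15 to 19 nt and 26.7% of 15 for 25 to 32 nt. The known sequences used for this include short and rare forms. For some seeds the most abundant was such a form, as dre-mir-338-2-p5_1ss15TG with 1.5 counts and ola-mir-200a-p5_1ss14CT with 1 count. A known seed is therefore not always that of an established microRNA. By sequence, the 412 fell into 24 end variants with no mismatch to a known sequence and 14 with 1 or 2 mismatches. A further 26 had a known seed without such an ungapped match, called seed-only here, and 348 had none of these relations. Gaps were not allowed, so a seed-only sequence can differ from a known one by 1 inserted or deleted base, as PC-5p-11727_50 does. The class of 348 held 76.7% of the counts, the end variants 17.5%, the sequences with mismatches 3.43% and the seed-only sequences 2.46%. Of the 38 sequences close to a known one, 28 were labelled 3p and 10 labelled 5p. Among the 38, 26 had a seed found in a known sequence of the table, though not always in the close one. The known sequence had more counts than the predicted one in 29 of the 38 and fewer in 9. It was chosen by the fewest mismatches and then the longest overlap, and can be a rare form. PC-3p-24189_18 was set beside a miR-122 form with 1 count, though it is 1 edit away from one with 24624.

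PC-5p-2160_445 was the most abundant sequence with a known seed. Its bases 2 to 8, AGCAGCA, are the seed of the miR-15 and miR-16 family, known in mammals for repressing cell cycle and survival genes, and 13 known sequences of the table carry it. The known form that it extends by 2 bases, a miR-457a sequence, had 76 counts where PC-5p-2160_445 had 837. PC-5p-29073_14, which has the same seed, extends a miR-15a-5p form with 9957 counts and had 44 counts itself.

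PC-3p-3978_206 and PC-3p-1971_492 are the 3p strands of miR-33b and miR-33a with 1 further base at the 3′ end. In mammals miR-33 lies within the genes of the sterol regulators SREBP and represses the cholesterol exporter ABCA1. PC-3p-3978_206 had 438 counts beside 3575 for ssa-miR-33b-3p, and PC-3p-1971_492 had 324.5 counts beside 733 for ssa-miR-33a-3p. PC-3p-5887_124, with 172 counts, ends 1 base beyond a miR-2188-3p form with 1080.

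Other matches included some with microRNAs that are typical of liver or blood. PC-3p-24189_18, with 74 counts, is 1 edit away from a miR-122-2-3p form with 24624 counts, and PC-5p-11727_50, with 64 counts, has the seed of miR-122, the main microRNA of hepatocytes, and is 1 edit away from a form with 4708405 counts. An edit is 1 base changed, inserted or deleted when the shorter sequence is laid inside the longer one. PC-3p-5694_130 overlaps a sequence named for the p3 arm of mir-451 and had 104.5 counts beside 173 for that known form. A form of miR-451 itself, a microRNA of red blood cells, had 23256 counts and has another sequence. PC-3p-14110_38 had 75 counts and shares with miR-190a-3p the seed and the base on either side of it. PC-3p-12482_46 had 55 counts beside 510 for its miR-30b-3p form.

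PC-3p-3987_206, with 351 counts, matched a let-7j 3p sequence over 18 nt with 1 mismatch. The let-7 family, first known from the timing of worm development, holds back proliferation genes in vertebrates. That known 3p sequence starts at another base and had 1 count, and the seed of PC-3p-3987_206 is that of a let-7a-3p form with 1384 counts.

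Seeds were seldom shared among the predicted sequences themselves. The 412 had 393 distinct seeds, and 17 seeds were found in 2 or more sequences, 36 sequences in all, with 12 of these seeds in no known sequence of the table. Some of the 17 shared seeds stand in end variants of each other, as in PC-5p-13788_40 and PC-5p-44623_7. In 2 cases 3 sequences shared a seed. In PC-5p-31245_13, PC-5p-51799_6 and PC-5p-76955_3 all 3 are end variants of each other. The other case is shown, in which 2 sequences are end variants of each other. The third differs at the first base and within the body, and capitals mark the seed.
PC-5p-26427_16: tGAACCATcctgatcttgcgaga
PC-5p-30572_13: tGAACCATcctgatcttgcga
PC-5p-64014_4: cGAACCATcctgatctcatga
Their totals were 28.5, 9.5 and 1 count. These sequences, like the pairs that follow, were chosen after their values were seen.

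A duplex with a partner in the table was looked for by pairing each predicted sequence with every other sequence of at least 18 nt. A pair was counted when its computed energy was -20 kcal/mol or lower and both 3′ overhangs had 1 to 3 nt. Of 444342 pairs 146 passed (0.0329%), and 86 of the 412 sequences (20.9%), 35 labelled 5p and 51 labelled 3p, stood in at least 1 of them. By the same measure 45 of 128 known 5p and 3p pairs of the same name passed (35.2%). Of 44377 known 5p and 3p pairs of different names 215 passed (0.484%). Different names include arms of a single microRNA under different species prefixes and members of a single family. The 0.484% is therefore not a rate for unrelated sequences. Of the 121 pairs with a known sequence 87 had an arm in the known name, and 67 of these were on the opposite arm. The 121 pairs involved 54 predicted sequences and are not separate cases, since a sequence can pair with several related known ones. Of the 19 pairs between 2 predicted sequences 16 joined a 5p with a 3p label. No chance level was computed for the share of 20.9% or for the counts of pairs on opposite arms. A pairing of this kind is a description of the letters and not proof of a shared hairpin, and genome positions were not used here.

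The pairs shown are among those with the lowest energy or the most counts, with the paired bases in capitals and each sequence written 5′ to 3′.
PC-3p-16251_32: AAGCCGCATGTAACACCCTgga
PC-5p-46448_7: AGGGTGTTACATGCGGCTTgct
PC-3p-31514_12: TAGTGCAACATTGTCAAAGCagt
dre-miR-301c-5p_R+1_2ss4CT9GA: GCTTTGACAATGTTGCACTAct
PC-5p-5708_130: ATACCTATAGACACGAGCTTGt
dre-miR-100-2-3p: CAAGCTCGTGTCTATAGGTATg
PC-3p-3987_206: CTGTACAAGCcACTGCCTTgct
hhi-let-7j: tGAGGTAGTtGTTTGTACAGtt
PC-3p-26657_16: TCTATGGATTCAGTTCTTctt
ssa-miR-146a-5p: tGAGAACTGAATtCCATAGAtgg
PC-3p-16251_32 and PC-5p-46448_7, with 17.5 and 7.42 counts, paired at -36.7 kcal/mol over 19 bases, and neither has a known seed. PC-3p-31514_12, with 16 counts, paired at -34.1 kcal/mol with a miR-301c-5p form of 345 counts. PC-5p-5708_130, with 143 counts, paired at -36.8 kcal/mol with a miR-100-2-3p sequence of 209 counts. In that pair 21 bases of each strand were joined with no gap in the pairing. The table also holds dre-miR-100-5p, which has another sequence than PC-5p-5708_130 and 2875929 counts. The origin of PC-5p-5708_130 was not tested. The miR-100 family is known in mammals for repressing the growth kinase mTOR.

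PC-3p-3987_206 paired at -26.1 kcal/mol with hhi-let-7j, which had 83538 counts, and at -22.5 kcal/mol with dre-let-7a, which had 521100 counts. PC-3p-26657_16, with 28 counts, paired at -24.4 kcal/mol with ssa-miR-146a-5p, a microRNA induced by inflammatory signals in mammals, which had 238777 counts. In each case the predicted sequence was labelled 3p and was the rarer strand. PC-3p-5887_124 paired at -26.6 kcal/mol with the 5p strand of miR-2188, which had 14185 counts.

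The proportion between a predicted end variant and the known form it overlaps was compared between control and fasted libraries for the 5 pairs in which both forms had a total of at least 100 counts. PC-3p-1971_492 made up 25.2%, 22.3% and 33.8% of the counts of the 2 forms of miR-33a-3p in control replicates 3, 4 and 6. In fasted replicates 3, 4 and 5 it made up 34.6%, 34.9% and 32.8%. Its counts were 85.5, 11.5 and 70.5 in the controls and 37.5, 80 and 39.5 in the fasted libraries. Most of them are not whole, so some of its reads were divided, as were some of PC-3p-5694_130 below. The fasted libraries lay close together at 34.1% ± 1.15 (SD, n = 3), the control libraries spread more at 27.1% ± 5.98 (SD, n = 3), and control replicate 6 lay above fasted replicate 5, so the groups overlapped.

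PC-3p-3978_206 held a smaller part of miR-33b-3p, 10.8%, 13.7% and 10.8% in the control libraries and 9.97%, 9.63% and 11.9% in the fasted ones. PC-3p-5887_124 held 14.2% ± 1.20 (SD, n = 3) of its miR-2188-3p pair in control and 14.004% ± 1.63 (SD, n = 3) in fasted libraries. The 2 variants with a shifted 5′ end held the largest parts. PC-3p-12643_45 held 41.4% ± 7.45 (SD, n = 3) in control and 38.8% ± 9.52 (SD, n = 3) in fasted libraries, and PC-3p-5694_130 held 38.8% ± 4.34 and 34.5% ± 2.11 (SD, n = 3 each). The exact two-sided permutation p over libraries was 0.2 for the miR-33a-3p and mir-451-p3 pairs and 0.4 to 0.9 for the other 3. A comparison of 3 against 3 libraries cannot give a p under 0.1.

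**Figure D2:**
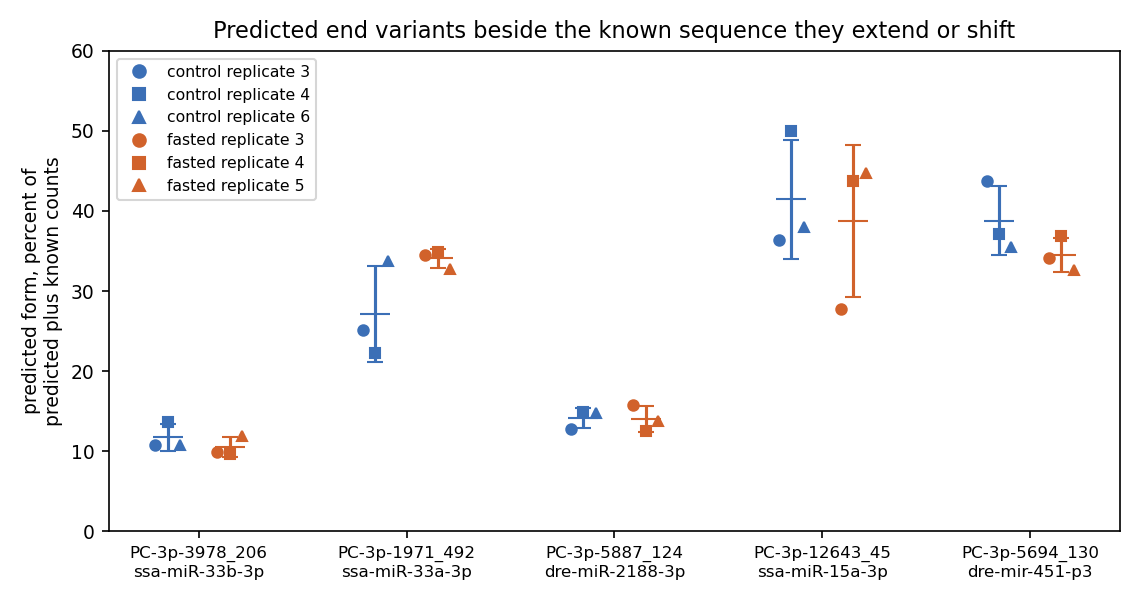
Counts of a predicted end variant as a percent of its own counts plus those of the known form named under it (y axis), for 5 pairs and 6 libraries; points are libraries and bars the mean ± SD of 3. The 2 variants with a shifted 5′ end (right) have the highest group means (34.5% to 41.4%), and the fasted points of the miR-33a-3p pair lie between 32.8% and 34.9%, 1 of them below the highest control at 33.8%.

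Facts of all libraries bear on the fasting comparison. The table counts ranged from 737686 in fasted replicate 3 to 4203708 in control replicate 3, and the table held 15.1% of the mappable reads in fasted replicate 3 against 34.9% to 61.0% in the other 5. Rows of miR-122, the hepatocyte marker, held 35.1% to 42.6% of the table counts in every library. Summed over fixed marker names, red blood cell rows (miR-451 and miR-144, 12 rows) held 0.172% to 0.358% in control and 0.114% to 0.898% in fasted libraries. White blood cell rows (18 rows) held 0.0811% to 0.178% and 0.0708% to 0.278%, and muscle rows (5 rows) at most 0.0167%. Rows of mir-7641, a name used for fragments of ribosomal RNA (6 rows), held 0.285%, 0.0112% and 0.0406% of the counts of the controls. In the fasted libraries, in the order of replicates 3, 4 and 5, they held 1.78%, 0.0413% and 0.326%.

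All 412 sequences together held 0.125%, 0.0936% and 0.0725% of the table counts in control replicates 3, 4 and 6. The shares were 0.227%, 0.0780% and 0.139% in fasted replicates 3, 4 and 5. The means were 0.0969% ± 0.0263 in control and 0.148% ± 0.0748 in fasted libraries (SD, n = 3 each), and the groups overlapped, since fasted replicate 4 lay below 2 of the controls. The highest share belonged to fasted replicate 3, the library with the smallest table and the most ribosomal fragments. Without it the difference between the means shrank from 0.0510 to 0.0115 percentage points. As a share of mappable reads the direction turned, with a mean of 0.0510% in control and 0.0400% in fasted libraries.

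By relation to the known sequences, the end variants held 0.0159%, 0.0145% and 0.0116% of the table counts in the control libraries and 0.0510%, 0.0213% and 0.0339% in the fasted ones. The fasted libraries lay above all 3 controls. As a share of mappable reads, an alternative chosen after seeing the data, they held 0.00715%, 0.00820% and 0.00707% in the controls and 0.00768%, 0.0102% and 0.0119% in the fasted libraries, and the groups overlapped. PC-5p-2160_445 made up a large part of this class, with 3.49% to 4.94% of the counts of the 412 in the controls and 8.88% to 13.0% in the fasted libraries. The sequences with no match held 0.101%, 0.0745% and 0.0561% in the controls and 0.166%, 0.0508% and 0.0981% in the fasted libraries, and these overlapped.

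**Figure D3:**
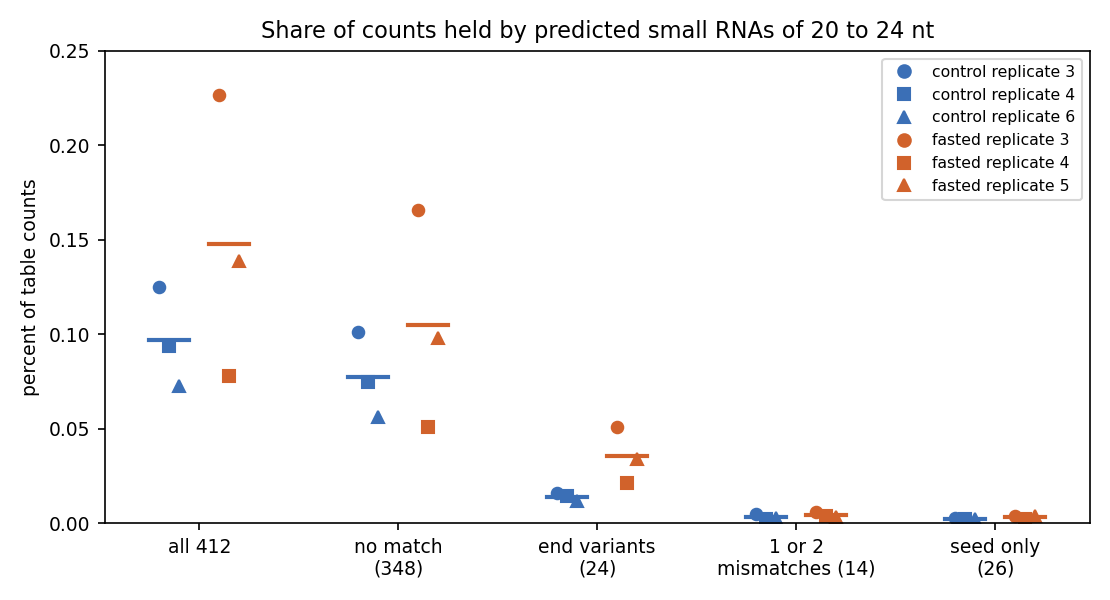
Percent of the table counts (y axis) held by the 412 predicted sequences of 20 to 24 nt and by 4 classes of them (x axis, number of sequences in brackets), in 3 control and 3 fasted libraries; points are libraries and lines the group means. The fasted end variants (0.0213% to 0.0510%) lie above the controls (0.0116% to 0.0159%), and the groups overlap for all 412.

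The make-up of the 412 also differed between libraries, in some measures without and in others with overlap of the groups. Sequences of 23 or 24 nt held 15.4%, 15.8% and 18.4% of their counts in the controls and 42.5%, 24.6% and 26.0% in the fasted libraries. PC-5p-10117_60, of 24 nt, accounted for 3.34%, 4.999% and 6.78% of the counts in the controls and 21.9%, 11.4% and 8.88% in the fasted libraries. Sequences opening with adenine held 26.4%, 25.3% and 28.7% in the controls and 10.4%, 21.8% and 16.2% in the fasted libraries. In each of these 3 measures the groups did not overlap and fasted replicate 3 was the most distant library. Sequences opening with cytosine held 10.3% to 13.7% in the controls and 16.4% to 19.8% in the fasted libraries, highest in fasted replicate 4. The groups overlapped for guanine, at 16.95% to 21.99% in the controls and 21.8% to 34.6% in the fasted libraries. They also overlapped for thymine, at 37.9% to 43.98% and 36.03% to 41.2%. The first-base shares are parts of a whole and do not move independently. PC-3p-1586_656, which opens with adenine, held 6.03% to 9.66% in the controls and 0.568% to 4.29% in the fasted libraries. The shares of PC-3p-3042_289 and PC-5p-2335_401 overlapped between the groups. The 5p sequences held 42.0% to 46.4% and 47.4% to 61.8%. They include PC-5p-10117_60 and also PC-5p-2160_445, the latter at 3.49% to 4.94% in the controls and 8.88% to 13.0% in the fasted libraries. Of the 11 5p sequences in the test per sequence below, 3 had a log2 fold change above 0 and 8 below 0 with TMM scaling. Fasted replicate 3 was also the library with the largest share of predicted sequences of 15 to 19 nt, 1.14% of the table against 0.0448% to 0.394% in the other 5, and its part in these differences was not tested.

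For a test per sequence, edgeR's quasi-likelihood test was fitted on all sequences of the table with enough counts. The 309 tested sequences included 24 of the 412, which held 66.7% of their counts. The other 388 did not pass the count filter, which asks for enough counts in at least 3 libraries. With a Benjamini-Hochberg adjusted p of 0.05 as the limit, edgeR called 0 of the 309 sequences (0%), and 0 of the 24. At an unadjusted p of 0.05, 26 of 309 sequences passed (8.41%), 15 higher (4.85%) and 11 lower (3.56%) in fasted trout. The 26 included 14 of 258 known sequences of 20 to 24 nt (5.43%). They also included 3 of 7 predicted ones of 15 to 19 nt (42.9%) and 2 of 6 of 25 to 32 nt (33.3%). Of the 24, 6 passed (25%), 5 higher and 1 lower. That balance was not stable: with the replicate number as a block it was 2 higher and 5 lower, and with limma-voom 3 and 3. The block fit compares the groups within replicate numbers 3 and 4 only, since number 6 has no fasted and number 5 no control library. DESeq2 called 2 of 1325 sequences (0.151%) and 0 of the predicted ones of 20 to 24 nt. The smallest adjusted p of the 24 in edgeR was 0.450, and the median half-width of their 95% intervals was 1.18 on the log2 scale, against 1.00 over all tested sequences.

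The log2 fold changes of the 24, fasted against control, had a median of -0.27, with 8 above and 16 below 0, beside a median of 0.01 over all 309, of which 155 (50.2%) were above 0. These signs hold for TMM scaling, which sets the middle of the table to no change. With library totals alone the median of all 309 moved to 0.59 and that of the 24 to 0.26, with 15 of the 24 above 0. The known sequences of 20 to 24 nt had a median of 0.02 over 258 tested with TMM scaling. The other predicted sequences had medians above 0 with that scaling. The median was 1.22 over 7 tested of 15 to 19 nt, 5 of them above 0. It was 0.77 over 6 tested of 25 to 32 nt, 5 of them above 0.

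In whole liver, fewer cells that hold a small RNA and less of it per cell cannot be told apart. The groups did not overlap in CPM for 6 of the 24 (25%), 3 with all fasted libraries above and 3 with all below. Of all tested sequences 17.5% did not overlap, 8.74% in each direction. Among the other predicted sequences, 3 of 7 of 15 to 19 nt and 3 of 6 of 25 to 32 nt did not overlap, with fasted above. Values that follow are TMM-scaled CPM of the controls (replicates 3, 4 and 6) and then of the fasted libraries (replicates 3, 4 and 5).

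Among those higher in fasted libraries, PC-5p-2160_445, which has the miR-15 and miR-16 seed, stood at 49.4, 40.3 and 47.0 and then at 180.3, 82.5 and 102 CPM. All fasted libraries lay above all controls, and fasted replicate 3 was the highest. Its log2 fold change was 1.41 (SE 0.39), with an edgeR adjusted p of 0.450 that did not pass, and it was 1.07 without fasted replicate 3.

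PC-5p-10117_60, without a known relative in the table, stood at 47.2, 56.2 and 64.6 and then at 303, 98.8 and 102 CPM. The fasted libraries were again all above the controls, with fasted replicate 3 far above the other 2. The log2 fold change was 1.58 (SE 0.50; edgeR adjusted p 0.504) and fell to 0.89 without fasted replicate 3. PC-3p-1971_492, the miR-33a-3p end variant, stood at 23.2, 14.7 and 21.9 and then at 31.4, 62.3 and 27.8 CPM. Here fasted replicate 4 was the highest. The log2 fold change was 1.00 (SE 0.43; edgeR adjusted p 0.557), and 0.53 without fasted replicate 4, beside 0.52 (SE 0.41; edgeR adjusted p 0.690) for the known form ssa-miR-33a-3p.

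PC-5p-10120_60 and PC-3p-18989_26, of 24 and 23 nt, were the 2 remaining sequences with an unadjusted p under 0.05 and a higher fasted mean, and their groups overlapped. PC-3p-18989_26 stood at 13.0, 7.33 and 3.45 and then at 57.9, 10.1 and 25.02 CPM, a log2 fold change of 1.94 (SE 0.72). PC-5p-10120_60 stood at 26.4, 4.88 and 8.15 and then at 95.1, 14.8 and 42.4 CPM, a log2 fold change of 1.87 (SE 0.79). In both, replicate 3 was the highest of its group in controls and in fasted libraries, and so it was for the mir-7641 rows. Without fasted replicate 3 the values were 1.24 and 1.16, and without control replicate 3 they were 2.61 and 2.86. Whether ribosomal fragments have a part in these values was not tested.

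**Figure D4:**
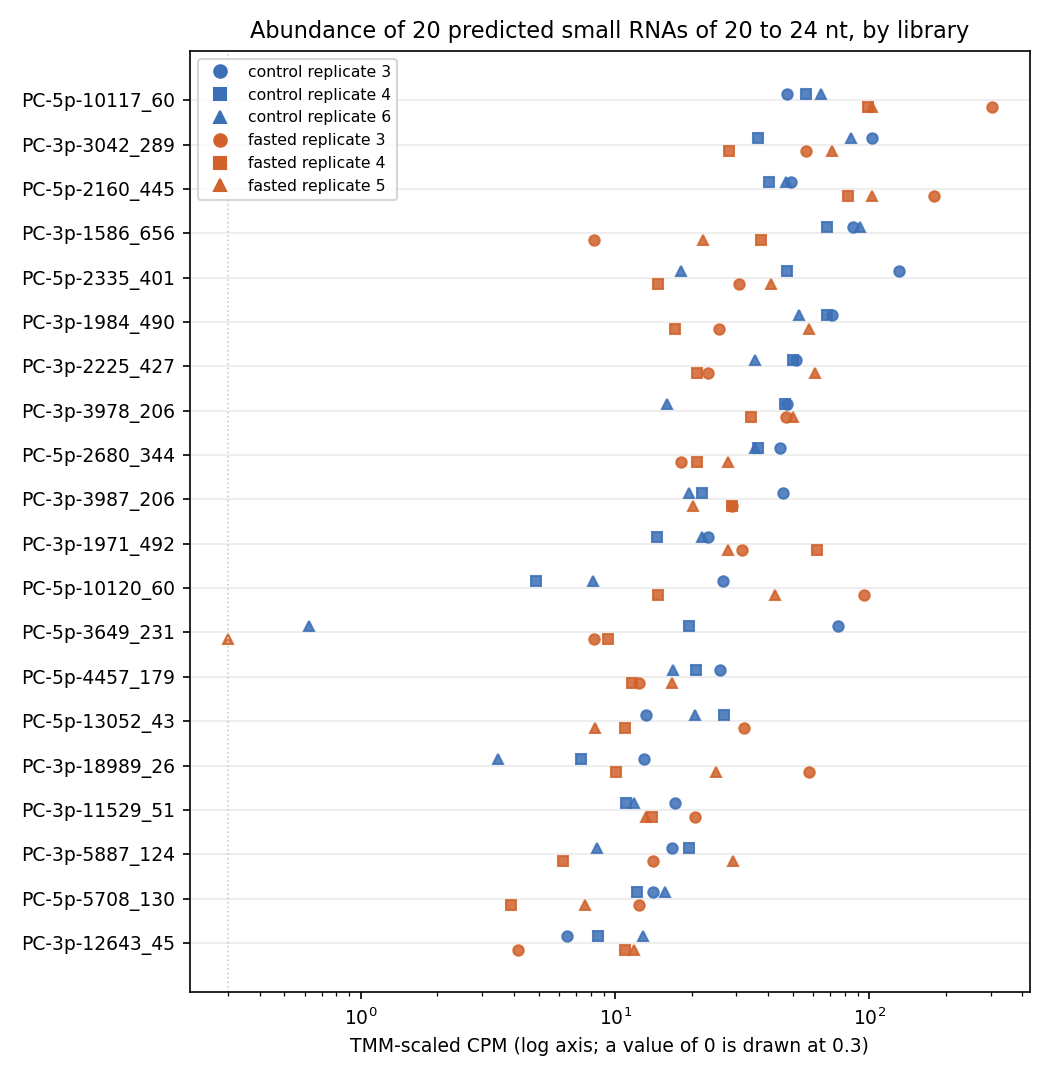
TMM-scaled CPM (x axis, log scale) of the 20 most abundant tested predicted sequences of 20 to 24 nt, in order of mean count; blue points are 3 control and orange points 3 fasted libraries. For PC-5p-10117_60, PC-5p-2160_445 and PC-3p-1971_492 all orange points lie to the right of the blue ones. For PC-3p-1586_656, PC-5p-2680_344 and PC-5p-4457_179 all lie to the left, in the last by a small gap.

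PC-3p-1586_656 was the sequence of the 24 with an unadjusted p under 0.05 and a lower level in fasted libraries. It stood at 86.4, 68.4 and 92.2 and then at 8.27, 37.4 and 22.2 CPM, so the groups did not overlap and fasted replicate 3 was the lowest. The log2 fold change was -1.86 (SE 0.52; edgeR adjusted p 0.450), and -1.41 without fasted replicate 3. Its values were not whole numbers in 4 of 6 libraries, so some of its reads were divided, in a way that the sources used here do not give.

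PC-5p-2680_344 stood at 44.5, 36.6 and 35.4 and then at 18.2, 21.01 and 27.8 CPM, and its log2 fold change was -0.80 (SE 0.35; edgeR adjusted p 0.557). PC-5p-4457_179 stood at 25.9, 20.8 and 16.9 and then at 12.4, 11.7 and 16.7 CPM, and its log2 fold change was -0.64 (SE 0.38; edgeR adjusted p 0.606). In both the fasted libraries lay below the controls, for PC-5p-4457_179 by a small gap between control replicate 6 and fasted replicate 5.

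The lowest estimate among the 24 came with the widest error. PC-5p-3649_231 stood at 75.6, 19.5 and 0.627 and then at 8.27, 9.34 and 0 CPM, and its log2 fold change of -2.48 had an SE of 1.41. Control replicate 6 was close to 0 while control replicate 3 was the highest of all, so the controls spread almost as widely as all 6 libraries. Without control replicate 3 the log2 fold change was -0.56. PC-5p-2335_401 was also uneven among the controls, at 131, 47.6 and 18.2 CPM, against 30.6, 14.8 and 41.0 CPM in fasted libraries. Its log2 fold change was -1.19 (SE 0.71), and -0.17 without control replicate 3.

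PC-3p-3042_289 stood at 102, 36.6 and 84.3 and then at 56.2, 28.0 and 71.6 CPM, a log2 fold change of -0.53 (SE 0.50). PC-3p-1984_490 stood at 71.2, 68.4 and 52.7 and then at 25.6, 17.1 and 57.7 CPM, a log2 fold change of -0.93 (SE 0.48). PC-3p-2225_427 stood at 51.5, 50.1 and 35.4 and then at 23.2, 21.01 and 61.2 CPM, a log2 fold change of -0.37 (SE 0.48). In the last 2, fasted replicates 3 and 4 lay below all controls and fasted replicate 5 did not, so the groups overlapped.

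The other 4 tested end variants and mismatched sequences among the 20 had estimates between -0.18 and 0.27. PC-3p-3978_206, the miR-33b-3p end variant, stood at 47.5, 46.4 and 16.0 and then at 47.1, 34.2 and 50.0 CPM, a log2 fold change of 0.27 (SE 0.47), beside 0.45 (SE 0.44) for ssa-miR-33b-3p. PC-3p-3987_206, the let-7j-related strand, stood at 45.9, 21.98 and 19.4 and then at 28.9, 28.8 and 20.2 CPM, a log2 fold change of -0.18 (SE 0.44). Its partner hhi-let-7j changed by -0.66 on the log2 scale (SE 0.37; edgeR adjusted p 0.606). PC-3p-5887_124, of the miR-2188 pair, had 0.18 (SE 0.60) and PC-3p-12643_45, of miR-15a-3p, had -0.05 (SE 0.52). In each of these 4 the fasted and control libraries overlapped.

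The other 3 of the 20 most abundant tested sequences overlapped as well. PC-5p-13052_43 had a log2 fold change of -0.22 (SE 0.58), PC-3p-11529_51 of 0.23 (SE 0.40) and PC-5p-5708_130 of -0.82 (SE 0.48). For PC-5p-13052_43 fasted replicate 3 was the highest library and fasted replicate 5 the lowest, at 32.2 and 8.34 CPM, with the controls between 13.2 and 26.9 CPM.

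**Figure D5:**
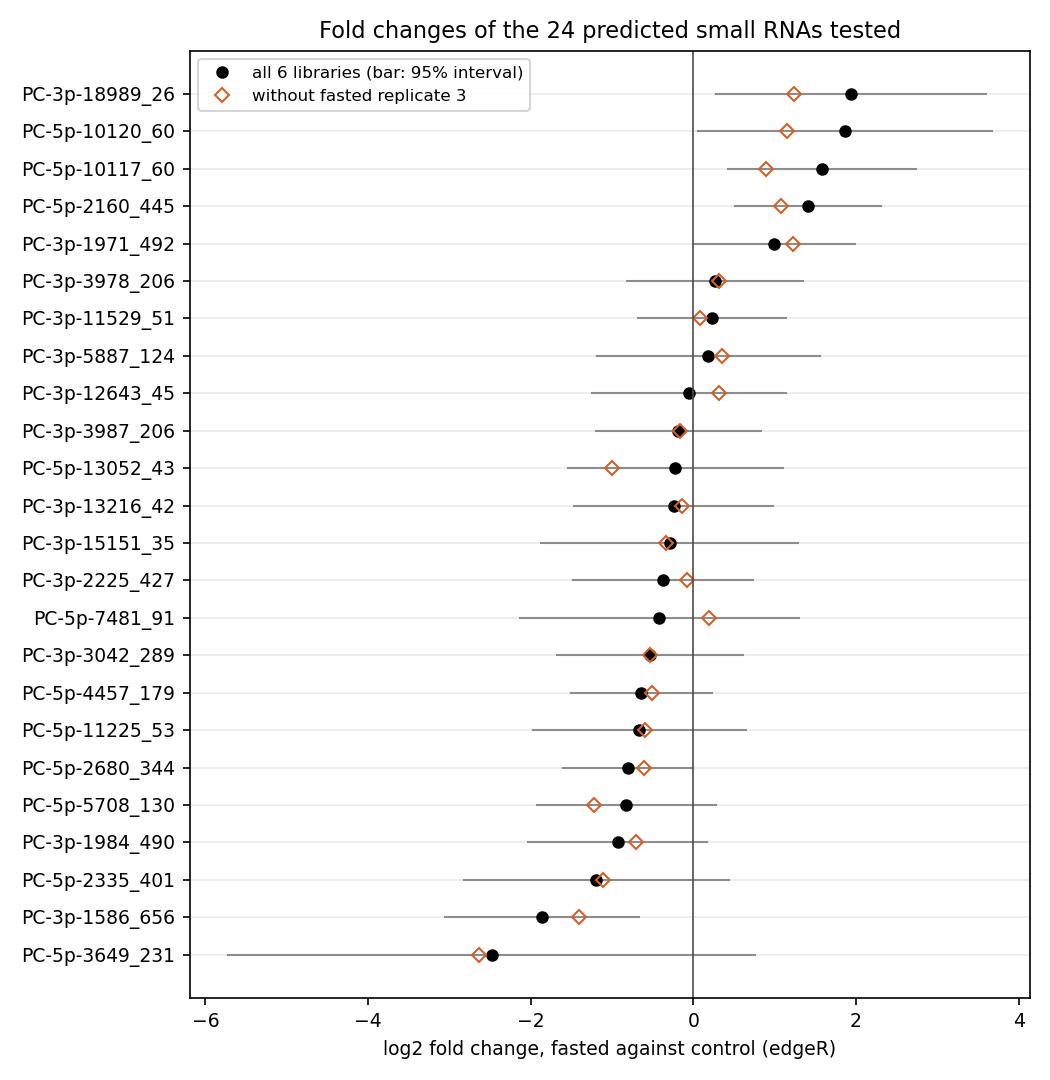
Log2 fold change, fasted against control (x axis, edgeR with TMM scaling), of the 24 tested predicted sequences of 20 to 24 nt; black points use 6 libraries with 95% intervals as bars, and open diamonds leave out fasted replicate 3. No sequence passed the adjusted test; PC-5p-10117_60 moves from 1.58 to 0.89 and PC-3p-1586_656 from -1.86 to -1.41 without that library.

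Some sequences did not pass the count filter although their totals were not small. Their counts are given without scaling for depth, and table counts ran from 737686 in fasted replicate 3 to 4203708 in control replicate 3. PC-3p-6669_105 was listed with 30, 69 and 0 counts in the controls and 41, 0 and 0 in the fasted libraries, in the order of their replicates. PC-5p-9623_65 had 47, 4 and 21 counts in the controls and 9, 6 and 7 in the fasted libraries. PC-3p-5694_130, the mir-451-p3 variant, had 43, 5.5 and 19.5 counts in the controls and 5, 3.5 and 28 in the fasted libraries. PC-3p-6669_105 was listed in 3 libraries, of both groups, and stood at 0 in the others, including control replicate 6, where 3 counts would be 0.716 CPM.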

How the data were processed

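Small RNA of 6 liver libraries was analysed from a deposited table of estimated read counts and a deposited table of read counts per step, in which the authors removed the 3′ adaptor and reads under 15 or over 32 nt, per the file headers. Bowtie 1.1.1 was used, per the submitters' processing notes. The genome build, the origin of the predicted sequences and the way reads were divided were not given in the sources used here. The deposited estimated counts were not whole for 14.4% to 20.8% of the values of a library, and they were rounded for the tests. A second set of columns, a signal that the authors scaled by a library size parameter per the file headers, served for 1 alternative. Columns with no matching sample numbered 0.

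The whole table was fitted with edgeR 4.0.16 (R 4.3.3; quasi-likelihood F test, TMM factors 0.762 to 1.64, filterByExpr with a count minimum of 10), with Benjamini-Hochberg adjustment over 309 sequences and an adjusted p of 0.05 as the threshold. The common biological coefficient of variation was 0.447. Standard errors and 95% intervals come from that fit. The scripts were tested on simulated data. Alternatives were other scalings, no filter, DESeq2 1.42.0, limma 3.58.1, a replicate block and leaving out each library. Exact two-sided permutation tests over 3 against 3 libraries have a smallest p of 0.1. No 2 libraries agreed within counting noise.

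A known sequence was called close when an ungapped overlap of at least 17 nt held at most 2 mismatches. Duplex energies were computed with ViennaRNA 2.7.2. Named are the 20 most abundant tested sequences by mean count, the 3 most abundant untested ones, up to 10 with a known seed and up to 10 close to a known sequence. The sequences, lists and rules were chosen with earlier results of these data known. All sequences shown are from the deposited table.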

Additional observations from a re-analysis of the deposited data

How the results depend on the processing

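With the edgeR fit as the reference, 0 sequences were called over the table and 0 of the predicted ones. These counts were the same under 5 other scalings or tests (median-of-ratios, upper-quartile, library totals, factors from known sequences, limma-voom) and under limma on the deposited normalized values. They were also the same with the replicate block, which compares the groups within replicate numbers 3 and 4 only. Without a count filter 11 sequences of the table and 2 predicted ones passed, PC-5p-3649_231 (log2 fold change -2.52, edgeR adjusted p 0.00724; with the filter -0.56 without control replicate 3) and PC-3p-1586_656 (-1.94, edgeR adjusted p 0.0222), and DESeq2 called 2 sequences, none of them predicted ones of 20 to 24 nt. Leaving out 1 library gave 0 to 1 sequences called over the table, the 1 without control replicate 3, and 0 predicted ones. The share of the table counts was higher in fasted libraries by 0.0115 to 0.0859 percentage points when 1 library was left out, lowest without fasted replicate 3 and highest without fasted replicate 4. With mappable reads as the denominator it was lower, by -0.0111 percentage points, and for the end variants the difference fell from 0.0214 to 0.00243 percentage points, an alternative chosen after seeing the data. It was 0.0228 for 21 to 23 nt and 0.534 for 18 to 25 nt, a range that takes in 437 sequences. Bases 2 to 7 in place of 2 to 8 raised the seed matches from 52 to 94.

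Of 300 log2 fold changes of the 20 most abundant tested sequences under alternatives, 19 changed sign, in 7 sequences whose intervals include 0. With library totals PC-3p-3042_289 became 0.12, PC-3p-2225_427 0.20, PC-3p-3987_206 0.38, PC-5p-13052_43 0.53 and PC-3p-12643_45 0.46, and upper-quartile scaling gave 0.094 for the last. With the replicate block PC-3p-3978_206 became -0.21, PC-5p-13052_43 0.14 and PC-3p-5887_124 -0.84. That fit compares the groups within replicate numbers 3 and 4 only. The labels do not say that a replicate number marks a shared batch, and deviations from the group means correlated at 0.440 for number 3 and -0.0350 for number 4. With the block 7 predicted sequences had an unadjusted p under 0.05, 2 higher and 5 lower, against 5 higher and 1 lower without it.
When 1 library was left out, the log2 fold change ranged from -0.10 to 0.52 for PC-3p-3978_206, from -0.40 to 0.32 for PC-3p-3987_206, from -0.999 to 0.23 for PC-5p-13052_43, from -0.40 to 0.56 for PC-3p-5887_124 and from -0.29 to 0.31 for PC-3p-12643_45. The cause of these sign changes was not tested.

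Depth limits what can be seen, since 388 of the 412 sequences did not pass the count filter and 269 had under 10 counts over all libraries.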
